A study of Homo sapiens with 2 samples.

Results

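The genes described here build, load and regulate the molecules that show peptides to T cells, together with a few surface ligands read by natural killer (NK) cells and T cells. They were chosen by symbol: 32 genes, of 18244 genes that had a probe set with 1 gene symbol in the platform annotation. Together they had 135 probe sets, all of which were read. The cells were MDA-MB-231, an established human breast cancer line with mesenchymal traits and no estrogen or progesterone receptor. One array held total RNA of a clone with stable UGT8 knockdown, and the other that of parental control cells. UGT8 encodes the ceramide galactosyltransferase, which makes galactosylceramide. Both lots were grown in DMEM with 5.6 mmol/L glucose and harvested 48 h after passage. How UGT8 was knocked down is not given in the sources used here. These knockdown cells were 1 clone and the controls the parental line, so clonal differences and loss of UGT8 cannot be told apart.

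With 1 array per group there is no replicate check, no test was run, and every value below describes these 2 arrays. Values are log2 RMA values, and a difference is the UGT8 knockdown value minus the control value, so a negative one means lower in the knockdown clone. RMA values are normalized between arrays, so a shift common to most transcripts cannot be seen. Hybridisation control probe sets had a median difference of 0.51, and on a scale centred on them TAP2, HLA-DMB, HLA-DOA, CIITA, RFX5, MICA, MICB and ULBP2 lie below 0. Directions below are on the deposited scale. A gene was read by its brightest probe set, and it counted as measured when the mean of both arrays was at or above the median of all non-control probe sets (6.64, called the floor below). At this floor 10439 genes were measured, with a median difference of 0.03. A 1.5-fold difference, 0.585 on the log2 scale, was the size at which genes were counted. UGT8 itself read 6.61 on the knockdown array and 8.95 on the control array in its brightest probe set (-2.34), and its other 2 probe sets were lower as well. The line's mesenchymal markers were bright on both arrays (VIM 13.9 on the knockdown array and 13.9 on the control array, CD44 12.5 knockdown and 12.8 control). The hormone receptor genes PGR (3.45 knockdown and 3.37 control) and ESR1 (6.30 knockdown and 6.31 control) were below the floor, ESR1 by little, whereas the luminal genes ERBB2, GATA3, KRT8 and CDH1 were past it, from 7.66 to 11.3 on the knockdown array and from 8.01 to 11.3 on the control array.

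MHC class I molecules consist of a heavy chain (HLA-B, HLA-C, HLA-E and others) paired with B2M, and sit on nearly all nucleated cells. Peptides from the proteasome are pumped into the endoplasmic reticulum by TAP1 and TAP2, trimmed by ERAP1 and ERAP2 and loaded with the help of TAPBP. MHC class II molecules are alpha-beta pairs (DR, DP and DQ) that carry endosomal peptides. They are assembled on the invariant chain CD74 and loaded through HLA-DM, mainly in professional antigen-presenting cells and in other cells exposed to interferon-gamma. The transactivators NLRC5 (class I) and CIITA (class II) act through a shared promoter module bound by the RFX complex and NF-Y. NF-Y binds the CCAAT motif, and many class I pathway promoters also carry an interferon-stimulated response element.

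Promoter windows are shown for members on either side of the result: 4 genes of class I molecules and 2 class II genes that were lower on the knockdown array, and IFI30, which was higher. Each window runs from 250 bases before to 50 after the gene's start in RefSeq (GRCh38.p14). They are HLA-B at chr6:31357130-31357429 (minus strand), HLA-C at chr6:31272043-31272342 (minus), HLA-F at chr6:29723184-29723483 (plus), B2M at chr15:44711267-44711566 (plus), HLA-DRB1 at chr6:32589799-32590098 (minus), CD74 at chr5:150412861-150413160 (minus) and IFI30 at chr19:18173563-18173862 (plus). Capitals mark the CCAAT motif on either strand (CCAAT or ATTGG) and the core of the interferon-stimulated response element on either strand (TTTC, any 2 bases and TTTC, or GAAA, any 2 bases and GAAA).
HLA-B: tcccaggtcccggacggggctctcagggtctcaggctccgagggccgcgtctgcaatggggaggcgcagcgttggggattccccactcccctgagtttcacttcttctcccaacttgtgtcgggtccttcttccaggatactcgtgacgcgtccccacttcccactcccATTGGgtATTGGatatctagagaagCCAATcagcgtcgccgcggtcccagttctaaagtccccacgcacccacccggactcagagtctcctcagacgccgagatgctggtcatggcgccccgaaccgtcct
HLA-C: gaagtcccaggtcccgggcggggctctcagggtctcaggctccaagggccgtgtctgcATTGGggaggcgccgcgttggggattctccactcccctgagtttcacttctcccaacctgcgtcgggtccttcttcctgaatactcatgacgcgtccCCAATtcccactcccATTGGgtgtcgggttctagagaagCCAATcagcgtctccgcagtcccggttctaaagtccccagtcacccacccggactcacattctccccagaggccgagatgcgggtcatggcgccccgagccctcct
HLA-F: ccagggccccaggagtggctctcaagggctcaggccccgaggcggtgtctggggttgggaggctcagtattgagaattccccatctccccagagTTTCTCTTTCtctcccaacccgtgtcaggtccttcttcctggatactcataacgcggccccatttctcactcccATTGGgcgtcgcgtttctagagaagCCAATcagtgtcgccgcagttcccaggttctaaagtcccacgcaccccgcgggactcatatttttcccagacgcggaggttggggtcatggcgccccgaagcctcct
B2M: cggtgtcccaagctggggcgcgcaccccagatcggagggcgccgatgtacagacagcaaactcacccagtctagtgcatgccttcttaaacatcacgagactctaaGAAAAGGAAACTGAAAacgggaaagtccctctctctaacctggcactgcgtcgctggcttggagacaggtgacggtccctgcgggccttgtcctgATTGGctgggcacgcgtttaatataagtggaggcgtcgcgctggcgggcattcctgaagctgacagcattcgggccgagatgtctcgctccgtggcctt
HLA-DRB1: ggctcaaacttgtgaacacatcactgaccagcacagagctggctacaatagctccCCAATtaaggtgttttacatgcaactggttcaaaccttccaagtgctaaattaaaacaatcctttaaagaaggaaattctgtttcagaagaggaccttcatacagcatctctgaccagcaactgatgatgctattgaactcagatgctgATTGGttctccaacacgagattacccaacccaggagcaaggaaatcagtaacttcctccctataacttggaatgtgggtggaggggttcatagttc
CD74: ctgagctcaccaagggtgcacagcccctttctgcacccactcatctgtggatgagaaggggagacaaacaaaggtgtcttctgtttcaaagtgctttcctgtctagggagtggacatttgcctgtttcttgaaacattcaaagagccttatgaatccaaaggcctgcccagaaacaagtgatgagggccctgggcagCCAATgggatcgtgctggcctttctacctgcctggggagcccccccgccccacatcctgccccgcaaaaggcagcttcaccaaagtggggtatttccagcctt
IFI30: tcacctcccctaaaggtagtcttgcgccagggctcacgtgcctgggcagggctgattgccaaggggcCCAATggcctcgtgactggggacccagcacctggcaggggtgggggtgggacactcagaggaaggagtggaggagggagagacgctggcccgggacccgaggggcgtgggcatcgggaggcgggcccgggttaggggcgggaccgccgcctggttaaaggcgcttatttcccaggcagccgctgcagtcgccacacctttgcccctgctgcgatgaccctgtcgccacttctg

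The windows of HLA-B, HLA-C and HLA-F held an unbroken run of 18 bases in common, tctagagaagccaatcag, which includes their CCAAT nearest to the start. In B2M, 2 overlapping matches to the interferon core form the capital run upstream of its CCAAT motif. Windows were found for 27 of the 32 members. The members with none were HLA-E, HLA-DRA, CTSS, CIITA and NLRC5. A CCAAT motif lay in 20 of the 37 windows of these 27 genes, against 34.6% of all 35116 windows in the table. The interferon core lay in 9 of the 37, against 3.57% of all windows. These 9 belonged to HLA-F, B2M, TAP1, TAP2, TAPBP, ERAP1, ERAP2, RFX5 and CD274. No member window held TGANGTCA or its reverse TGACNTCA, a form of the cyclic AMP response element, which was in 7.72% of all windows. A motif match is a description of letters. Of the 9 genes with the interferon core, TAP2 and RFX5 were higher in the knockdown clone on the deposited scale. The other 7 were lower in their brightest probe sets. ERAP2, among these 7, had both readings below the floor, and its dimmer probe sets gave 0.27 and 0.00.

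**Figure D1:**
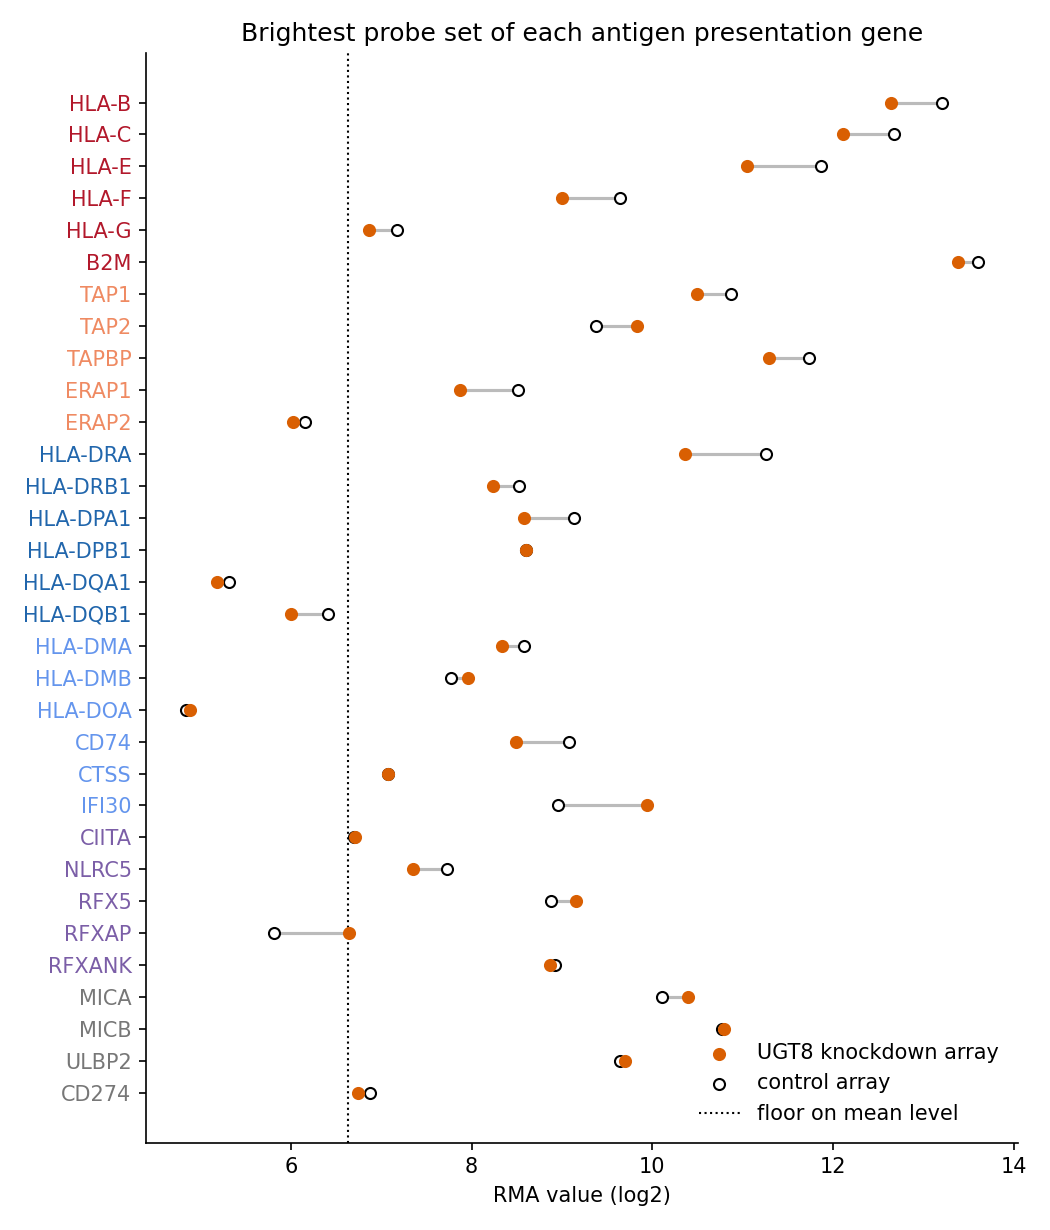
RMA value (log2, x axis) of the brightest probe set of each member (rows, coloured by role) on the UGT8 knockdown array (filled) and the control array (open), with the floor as a dotted line. Class I molecules all lie lower on the knockdown array, and IFI30, TAP2 and RFX5 lie higher on the deposited scale; levels of different genes are not comparable, because probe sets differ in brightness.

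All 6 class I molecule genes were lower in the knockdown clone. HLA-E, the heavy chain recognised by the NK receptor CD94/NKG2A, read 11.0 on the knockdown array and 11.9 on the control array, a difference of -0.82 (1.76-fold lower). Each of its 6 probe sets was at least 1.5-fold lower, with differences from -0.82 to -0.62 (mean -0.71 ± 0.07, where the SD is taken over 6 probe sets on the same 2 arrays and is no replicate error). HLA-F, a heavy chain that also exists in open form, read 9.00 in the knockdown clone and 9.64 in control cells (-0.65, 1.56-fold lower). Its 4 probe sets past the floor spanned -0.65 to -0.41, and its 6 dim ones spanned -0.38 to 0.09. The direction was thus the same in each bright HLA-F probe set and smaller in the dim ones.

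The classical heavy chains HLA-B and HLA-C, which present peptides to cytotoxic T cells, came just under the 1.5-fold size. HLA-B read 12.6 on the knockdown array and 13.2 on the control array (-0.57), and its other bright probe set differed by -0.65. The third, the only HLA-B probe set whose name does not mark cross-hybridisation, was dim, with 5.60 in the knockdown clone and 5.69 in control cells (-0.09). HLA-C read 12.1 in the knockdown clone and 12.7 in control cells (-0.56), and its other 2 probe sets differed by -0.86 and -0.81. HLA-C is therefore past 1.5-fold in 2 of its 3 probe sets and short of it in the brightest. HLA-G, a heavy chain of the placenta, was dim, with 6.86 in the knockdown clone and 7.18 in control cells (-0.31), and was lower in all of its 6 probe sets. B2M, the light chain shared by every class I molecule, differed least: 13.4 on the knockdown array against 13.6 on the control array (-0.22). All 8 B2M probe sets were lower, from -0.25 to -0.09, and 2 of the 8 had the same pair of readings, so they are not all separate measurements.

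Of the genes that supply and load class I peptides, 4 of 5 were measured, and they did not move together. TAP1, a subunit of the peptide transporter, read 10.5 on the knockdown array and 10.9 on the control array (-0.37), and its second probe set gave -0.44. TAP2, its partner subunit, read 9.83 in the knockdown clone and 9.38 in control cells (0.45). It was higher in 3 of its 4 probe sets, by 0.33 to 0.47, and -0.08 in the dimmest. The transporter's 2 subunits thus differed in opposite directions on the deposited scale, each with more than 1 probe set behind it. Centred on the hybridisation controls, TAP2 was at -0.06 and TAP1 at -0.88. TAPBP (tapasin), which bridges the transporter to empty class I molecules, read 11.3 in the knockdown clone and 11.7 in control cells (-0.44) and was lower in all 5 probe sets. ERAP1, the aminopeptidase that trims peptides, read 7.88 in the knockdown clone and 8.51 in control cells (-0.63, 1.55-fold lower) in the 1 probe set past the floor. The 4 dimmer ERAP1 probe sets gave -0.15 to -0.04, so its difference rests on that reading, whose name (_s_at) marks possible cross-hybridisation. ERAP2, a second trimming enzyme, was below the floor with 6.02 in the knockdown clone and 6.16 in control cells (-0.13). Its dimmer probe sets gave 0.27 and 0.00.

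Of the 4 measured class II molecule genes, HLA-DRA, HLA-DRB1 and HLA-DPA1 were lower. All their probe sets past the floor were named _s_at or _x_at. HLA-DPB1 showed no difference in its brightest probe set (-0.01), and the DQ genes were not measured. HLA-DRA, the DR alpha chain, had the largest negative difference among the members, with 10.4 on the knockdown array and 11.3 on the control array (-0.90, 1.86-fold lower). Its second bright probe set gave -0.93. The remaining one read 3.80 in the knockdown clone and 3.69 in control cells (0.11), close to the median of the array's background probe sets (3.44 on the knockdown array and 3.46 on the control array), and it is the only one whose name does not mark cross-hybridisation. HLA-DRB1, the DR beta chain, read 8.23 in the knockdown clone and 8.53 in control cells (-0.30) in its single probe set. HLA-DPA1 read 8.58 in the knockdown clone and 9.13 in control cells (-0.55), with all 4 probe sets between -0.61 and -0.55.

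HLA-DPB1, which pairs with HLA-DPA1, gave readings that disagreed. Its brightest probe set read 8.60 on the knockdown array and 8.61 on the control array (-0.01), whereas the other 6 past the floor spanned -0.81 to -0.43. Those 6 are all named _x_at, which marks possible cross-hybridisation, and the brightest is the only one past the floor without such a name. The median over these 7 was -0.61. HLA-DPB1 therefore showed no difference by the rule used for all genes and was 1.5-fold lower by the median of its bright probe sets. HLA-DQA1 (5.19 knockdown and 5.32 control, -0.13) and HLA-DQB1 (6.00 knockdown and 6.41 control, -0.41) were below the floor, and their dim probe sets pointed both ways, with 2 of 6 and 4 of 8 lower.

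The genes that process and exchange class II peptides were mixed. CD74, the invariant chain, read 8.49 on the knockdown array and 9.08 on the control array (-0.59, 1.51-fold lower), just inside the 1.5-fold size. All 5 of its probe sets were lower, and the 4 past the floor spanned -0.70 to -0.56. The gene with the largest positive difference was IFI30, the lysosomal thiol reductase GILT that opens disulfide bonds of antigens, with 9.94 in the knockdown clone and 8.96 in control cells (0.98, 1.97-fold higher). It had a single probe set, whose name (_x_at) marks possible cross-hybridisation. HLA-DMA and HLA-DMB, the chains of the peptide exchanger HLA-DM, differed in opposite directions on the deposited scale. HLA-DMA read 8.33 in the knockdown clone and 8.58 in control cells (-0.24) and was lower in both probe sets. HLA-DMB read 7.96 in the knockdown clone and 7.77 in control cells (0.19) and was higher in all 5. These differences of HLA-DM are small beside the 1.5-fold size. CTSS, the cathepsin that cuts the invariant chain, read 7.08 on both arrays in its brightest probe set and -0.14 in the other. Exactly equal values on both arrays were found in 3.53% of non-control probe sets. HLA-DOA, part of the HLA-DM inhibitor HLA-DO, was below the floor (4.88 knockdown and 4.84 control).

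**Figure D2:**
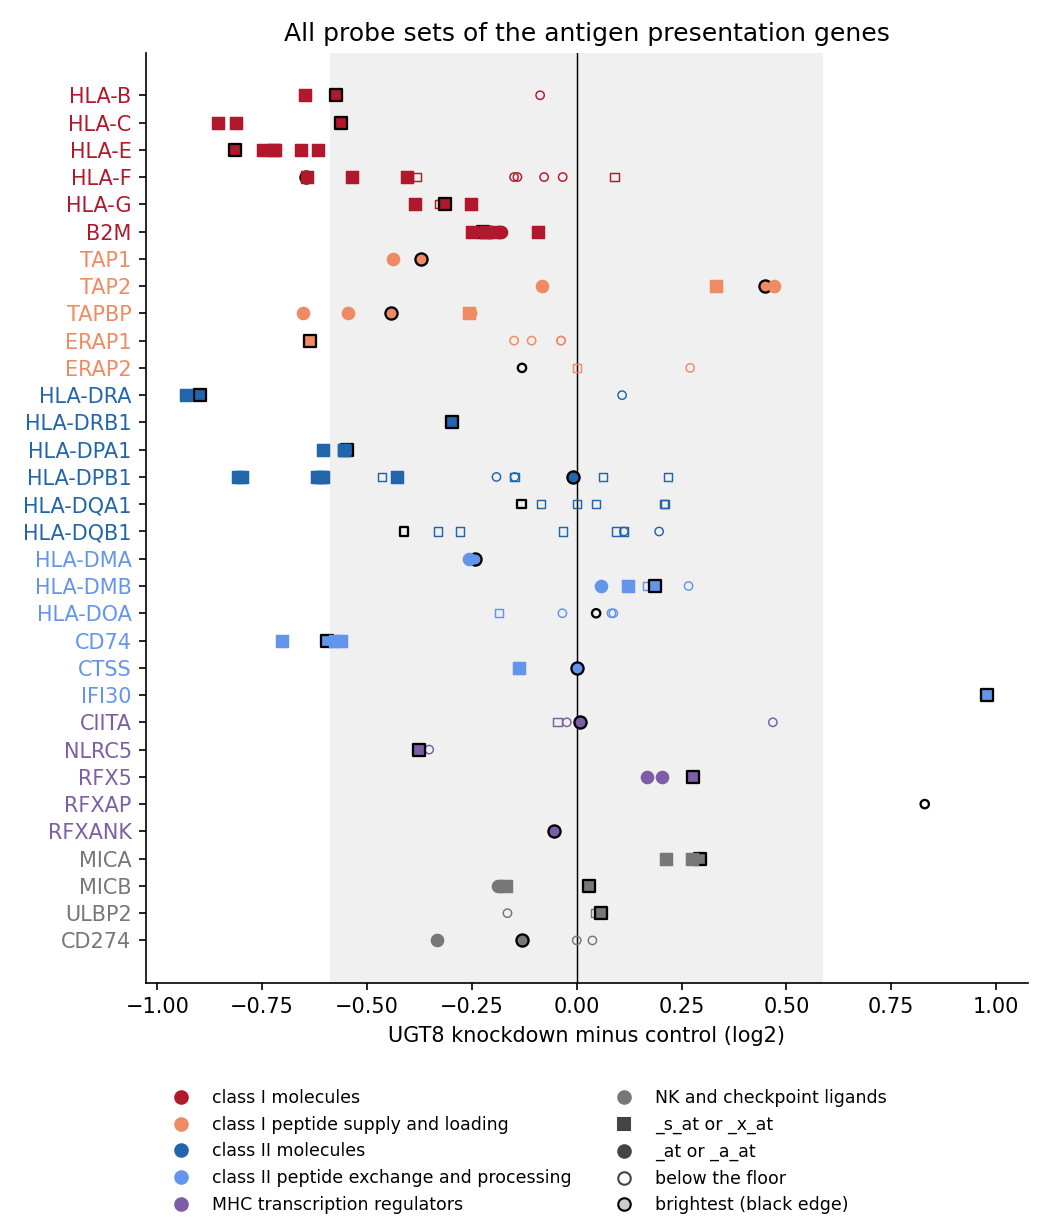
Difference (UGT8 knockdown minus control, log2, x axis) of each of the 135 probe sets of the 32 members (rows, coloured by role); squares are probe sets named _s_at or _x_at, open symbols lie below the floor, black edges mark the brightest probe set, and the grey band is within 1.5-fold. The 6 probe sets of HLA-E lie between -0.82 and -0.62, while those of HLA-DPB1 reach from -0.81 to 0.22 and those of TAP2 from -0.08 to 0.47.

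Of the 4 measured transcription regulators, 2 lay below 0 and 2 above. CIITA, the class II transactivator, was barely past the floor, with 6.71 on the knockdown array and 6.70 on the control array (0.01). Its 3 dimmer probe sets gave -0.05 to 0.47. NLRC5, the class I transactivator, read 7.35 in the knockdown clone and 7.73 in control cells (-0.38), and its dimmer probe set gave -0.35. RFX5, the DNA-binding subunit of the RFX complex, read 9.15 in the knockdown clone and 8.88 in control cells (0.28) and was higher in all 3 probe sets. RFXANK, its partner, read 8.87 in the knockdown clone and 8.92 in control cells (-0.05). RFXAP, the remaining subunit, read 6.64 in the knockdown clone and 5.81 in control cells (0.83, 1.78-fold higher) in its only probe set. The mean of these RFXAP readings was below the floor, so it entered no count.

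Ligands of NK and T cell receptors did not share a direction. MICA, a stress ligand of the NK receptor NKG2D, read 10.4 on the knockdown array and 10.1 on the control array (0.29) and was higher in all 3 probe sets. Its relative MICB read 10.8 in the knockdown clone and 10.8 in control cells (0.03) in the brightest probe set and -0.19 to -0.17 in the other 3. ULBP2, also an NKG2D ligand, read 9.70 in the knockdown clone and 9.64 in control cells (0.06). CD274 (PD-L1), the ligand of the T cell checkpoint receptor PD-1, read 6.74 in the knockdown clone and 6.87 in control cells (-0.13), with -0.33 in its second probe set past the floor. None of these 4 reached 1.5-fold in any probe set past the floor.

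Of the 32 members, 27 were measured: 18 of them were below 0, 8 above 0 and 1 at 0, with a median of -0.24. At least 1.5-fold lower were 5 of the 27, HLA-DRA, HLA-E, HLA-F, ERAP1 and CD74, against 6.74% of all measured genes, and IFI30 alone was at least 1.5-fold higher, against 4.96% of all measured genes. None reached 2-fold, which 1.54% of all measured genes did downward and 0.738% upward. Below 0 lay 66.7% of the measured members and 45.8% of all measured genes. The members share sequence and regulation and are not independent of each other, so these shares are a description.

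Class I was set against class II through the medians of both pathways. The 10 measured class I pathway genes (molecules, supply and loading) had a median of -0.50. Of them, 9 lay below 0, and 3 of those reached 1.5-fold. The 9 measured class II pathway genes (molecules, exchange and processing) had a median of -0.24, with 6 below 0, 2 at least 1.5-fold lower and 1 higher. The class I minus class II difference of medians was -0.26. It is no stable ordering: with the floor at the 75th percentile of mean level, which keeps 5 class II genes, the class II median was -0.55 and the difference 0.045. Within the classes, the 6 class I molecules had a median of -0.57 and the 4 measured class II molecules -0.42, whereas the 5 measured class II processing genes had a median of 0.00.

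**Figure D3:**
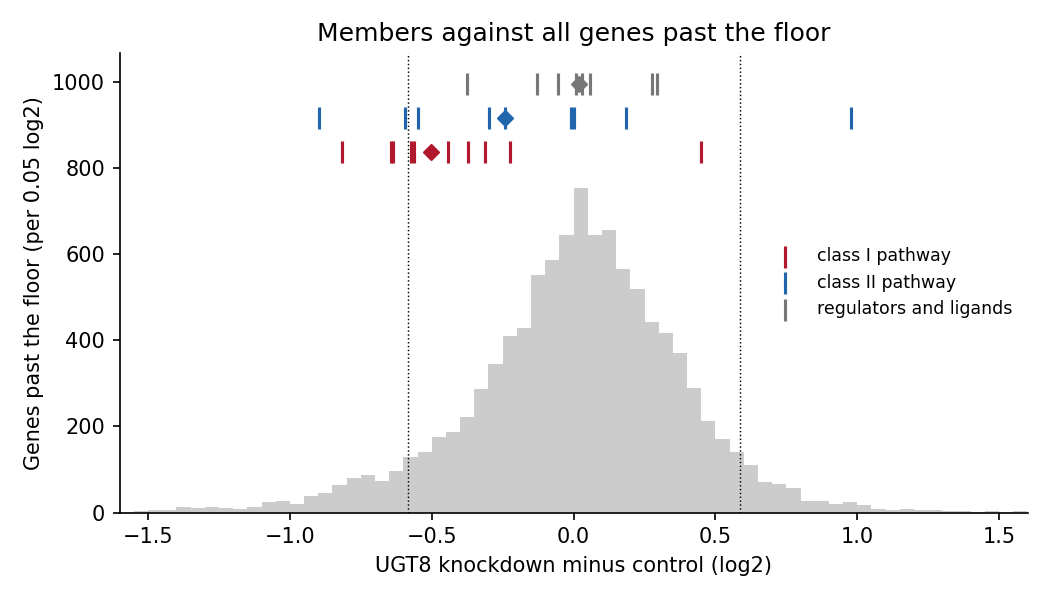
Histogram of the difference (UGT8 knockdown minus control, log2) over the 10439 genes past the floor, with the measured members as ticks and their medians as diamonds above it; dotted lines mark 1.5-fold, and genes beyond the drawn range are left out. The class I median lies at -0.50, the class II median at -0.24 and the median of all genes at 0.03.

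Probe sets were also split by the kind that their names mark. Past the floor the 2 kinds read partly different genes (22 and 14 members), so kind and gene cannot be told apart. Several probe sets of 1 gene are counted separately here. HLA genes resemble each other, and Affymetrix names probe sets that may bind several transcripts _s_at or _x_at. Of the members' 79 probe sets past the floor, 55 had such names, and 21 of these 55 were at least 1.5-fold lower and 1 (IFI30) higher. Of all measured probe sets, 7.07% were that much lower and 4.64% higher. Among the remaining 24, named _at or _a_at, 2 were, 1 of HLA-F and 1 of TAPBP. The medians were -0.55 for the first kind and -0.18 for the second. In the class I pathway, 11 of 26 of the first kind and 2 of 11 of the second were at least 1.5-fold lower (medians -0.55 and -0.37). In the class II pathway, 10 of 21 of the first kind and 0 of 5 of the second were (medians -0.58 and -0.01). Over all genes both kinds had a median of 0.02, with 6.45% and 7.41% of probe sets at least 1.5-fold lower. Of the measured HLA genes, HLA-C, HLA-E, HLA-G, HLA-DRB1 and HLA-DPA1 had no probe set of the second kind. How much of the difference of each HLA gene belongs to a relative was not tested. B2M and TAPBP, which are not HLA genes, were lower in both kinds.

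The HLA genes and several other members lie in the major histocompatibility complex on chromosome 6, so their neighbours were read too. In RefSeq's gene order from HLA-F to TAPBP, 16 measured members had a median of -0.34, and the 69 other measured genes between them had a median of 0.01. Of these 69, 5 were at least 1.5-fold lower (7.25%), close to the 6.74% of all genes, and 1 was higher. The 5, named after their values were seen, were the complement gene CFB (-2.22), PRRT1 (-0.89), GPSM3 (-0.87), the non-coding HCP5 (-0.74) and the collagen receptor gene DDR1 (-0.73), and the 1 was TCF19 (1.42). Among the measured genes, GPSM3 lies directly before HLA-DRA, with PBX2 (-0.56) before it. PRRT1 is a little further off, and the genes between PRRT1 and PBX2 lay from -0.09 to 0.13. HCP5 lies between MICA (0.29) and MICB (0.03), near HLA-B. The part of the region in the lower HLA values was not tested.

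**Figure D4:**
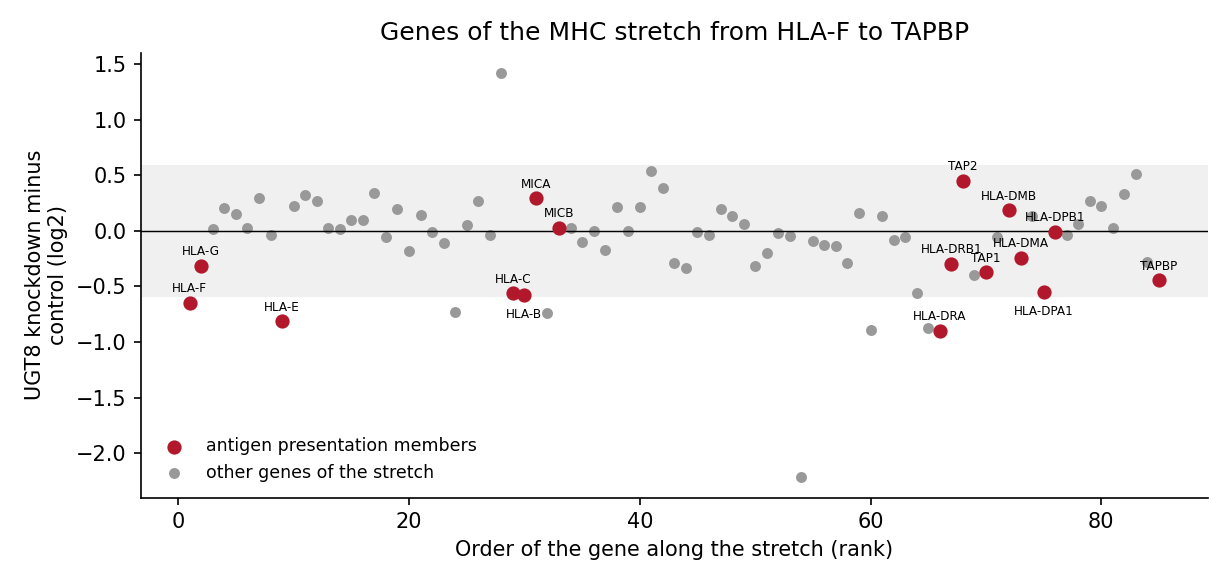
Difference (UGT8 knockdown minus control, log2, y axis) of the 85 measured genes from HLA-F to TAPBP in their order along the chromosome (rank, x axis), with members in red and the grey band within 1.5-fold. The HLA heavy chain genes lie below 0, and the genes between them scatter around a median of 0.01.

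The other genes of the pathway were read in 7 lists of 64 genes. Of these, 58 had a probe set and 39 were measured, with a median of -0.17. Below 0 lay 29 of the 39, against 45.8% of all measured genes and 66.7% of the measured members. Of the 39, 2 were at least 1.5-fold lower and 1 higher, a share of 5.13% lower against 6.74% of all measured genes. The 2 were endosomal proteases, CTSD (cathepsin D, 9.84 on the knockdown array and 10.4 on the control array, -0.61) and LGMN (legumain, 10.9 knockdown and 11.5 control, -0.59). The 1 was PROCR, an MHC-like receptor of the clotting system (9.13 knockdown and 8.27 control, 0.86). The 6 immunoproteasome and activator genes lay between -0.40 and 0.47, with a median of -0.09. The 4 measured chaperones and editors of class I folding lay between -0.48 and -0.05. The list of interferon receptor, JAK-STAT and IRF genes held 12 genes. A probe set of 1 symbol was found for 10 of them, none a STAT gene, and JAK2 (-0.54) was below the floor. Of the 9 measured genes of this list, 8 were below 0 and none reached 1.5-fold (median -0.23). The lowest of them, named after its value was seen, was IFNGR1, the interferon-gamma receptor chain (10.7 knockdown and 11.3 control, -0.57). The 7 NF-Y, CREB and NF-kappaB genes had a median of -0.11, the 5 measured NK and T cell ligands 0.13 and the 3 measured MHC-like molecules -0.21.

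Class II genes are typical of leukocytes, whose markers were read beside them. Of 14 leukocyte and antigen-presenting cell markers, 13 had a probe set and 4 were past the floor. The summed log2 values of the 13 were 71.5 on the knockdown array and 71.9 on the control array. The leukocyte gene PTPRC (CD45) read 3.40 in the knockdown clone and 3.56 in control cells, the B cell gene MS4A1 4.59 in the knockdown clone and 4.34 in control cells, and the T cell gene CD3D 4.73 in the knockdown clone and 4.48 in control cells. PTPRC was thus at the level of background probe sets on both arrays. The 4 past the floor were the myeloid or antigen-presenting cell markers CD14, CD68 (9.46 knockdown and 9.33 control), ITGAX (7.62 knockdown and 7.76 control) and TYROBP (a difference of -0.12). CD14 was the 1 marker at least 1.5-fold lower (6.77 knockdown and 7.50 control, -0.73). Of 6 fibroblast markers 2 were past the floor and lower, COL3A1 (6.48 knockdown and 8.00 control) and LUM (6.69 knockdown and 8.04 control), and of 6 endothelial markers 2 were past the floor and lower, PECAM1 (7.37 knockdown and 8.46 control) and KDR (a difference of -0.36). The part of these in the antigen presentation result was not tested. The 3' minus 5' reading of ACTB, which reflects RNA quality, was 0.90 on the knockdown array and 0.49 on the control array, and that of GAPDH 0.19 on the knockdown array and 0.18 on the control array; their part was not tested.

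**Figure D5:**
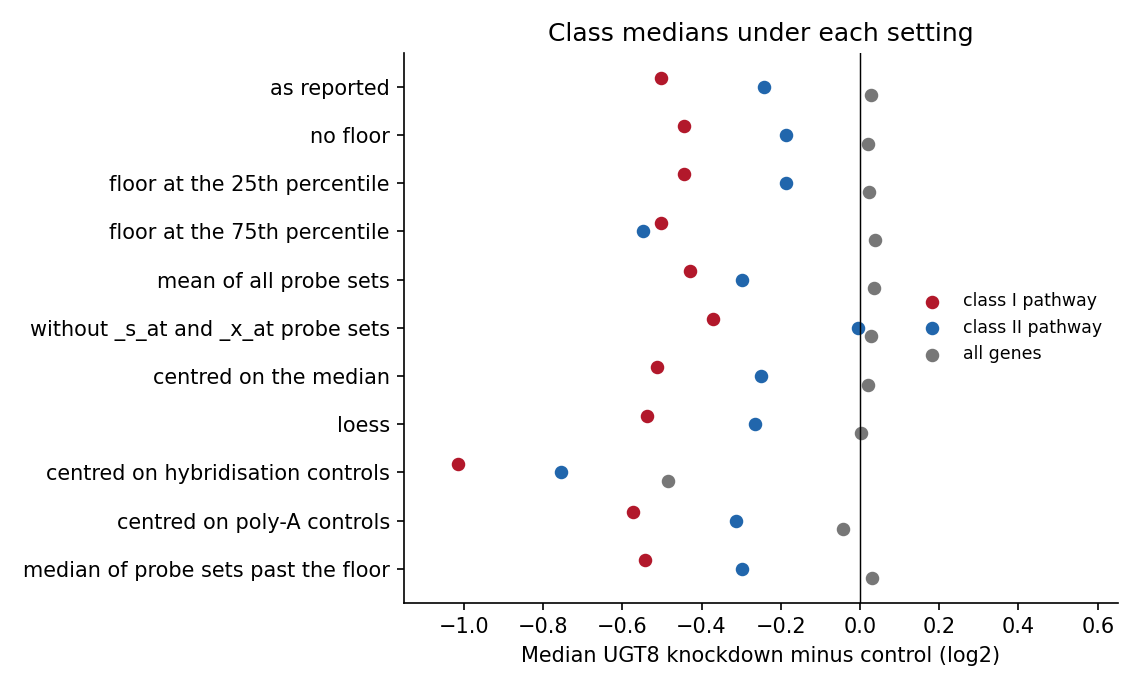
Median difference (UGT8 knockdown minus control, log2, x axis) of the class I pathway, the class II pathway and all genes under each setting (rows). The class I median is below that of all genes in every row shown. The class II median is -0.55 under the highest floor (75th percentile, 5 genes) and -0.0042 without probe sets named _s_at or _x_at (4 genes).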

How the data were processed

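Total RNA was hybridised to 2 Affymetrix expression arrays, 1 of UGT8 knockdown cells and 1 of control cells. The deposited values are log2 values made with RMA, per the submitters' processing notes; no version or build is named in the labels. The number of arrays limits the precision. Of 49495 probe sets, 102 were controls and 45278 had 1 gene symbol in the platform annotation, updated through gene IDs to RefSeq's GRCh38.p14 table; 1333 with several symbols were left out. Groups came from the genotype labels. Differences were taken with Python 3.11.15 and pandas; the calculation was checked on simulated data with known differences, and no difference between the arrays was tested. Genes named by rule were all 32 members, UGT8, and up to 3 genes past 1.5-fold per pathway list. Named besides were cell type markers, IFNGR1 and other genes of the stretch from HLA-F to TAPBP. PSME3 was named where it passed 1.5-fold under another setting. IFNGR1 and the genes of that stretch past 1.5-fold that are not members were named after their values were seen. The members and lists were chosen with earlier results of these data known. Alternatives changed the floor, the reading of probe sets, the scaling and the fold. Probe sets of 1 gene differed from each other with a median SD of 0.083 over 6067 genes. That SD comes from the same 2 arrays and says nothing about replicates.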

Additional observations from a re-analysis of the deposited data

How the results depend on the processing

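With 1 array per group, no setting adds a replicate check, and the settings below are not tests. No paired analysis was possible because each group holds 1 array. Changes are called shifts where they exceed the probe set SD (0.083) or, for counts, 1.5 times. By that rule, centring on the median and loess shifted none of the medians, counts or the UGT8 difference. Loess still gave 7 lower members, HLA-B and HLA-C among them, and 3 lower pathway genes, against 7.34% of all measured genes. Without a floor, or with one at the 25th percentile, 2 members were higher, IFI30 and RFXAP. Of all genes kept, 3.87% were higher without a floor and 4.64% with the lower one. A floor at the 75th percentile gave a class II median of -0.55 and a class I minus class II difference of 0.045. With the mean of all probe sets, 20 members stayed measured, 7 class I and 9 class II genes among them. The class I minus class II difference was then -0.13, and UGT8 differed by -2.10. Of these 20 members, 3 were lower (HLA-C, HLA-E and CD74), and 2 pathway genes were higher (PROCR and PSME3). Of all measured genes, 5.63% were lower and 4.28% higher with the mean. Without _s_at and _x_at probe sets, which left 14 members measured, the median of members was -0.092, of class I -0.37 and of class II -0.0042, a class difference of -0.37. The class I median then rested on 5 genes and the class II median on 4. HLA-DRB1, HLA-DPA1 and IFI30 had no probe set left, and those left of HLA-DRA and CD74 (-0.59) were below the floor. At this setting 1 member was lower (HLA-F) and 0 higher, and 0 pathway genes were lower and 2 higher (PROCR and PSME3). Of all measured genes, 6.83% were lower and 5.21% higher. HLA-DRA, read only by its dim probe set, was reversed at 0.11. The hybridisation controls were 0.51 higher on the knockdown array, and centring on them moved the median of all genes to -0.48. The medians were then -0.75 for members, -1.02 for class I and -0.75 for class II, and UGT8 differed by -2.85. On this scale 16 members were lower and 0 higher, and 25 pathway genes were lower and 0 higher. Of all measured genes, 37.05% were lower and 0.48% higher. On that scale 8 members changed sign, TAP2, HLA-DMB, RFX5, MICA and CIITA among them; IFI30 did not. Centring on the poly-A controls gave 8 lower members, as did the median of probe sets past the floor, a setting chosen after seeing the data. Of all measured genes, 8.58% were lower with the poly-A centring and 6.37% with that median. At 2-fold, 0 members and 0 pathway genes were lower or higher, against 1.54% of all measured genes lower and 0.74% higher. The causes were not tested, except that the construction of the setting leaves fewer genes where so stated.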
